A study of Mus musculus with 12 samples.

Results

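Metastases that arose in Math1-cre;A1G;Ptch1+/- mice were compared with the tumours of Ptch1+/- mice across all measured genes of a mouse series on medulloblastoma of the Sonic Hedgehog (SHH) subgroup. The comparison takes 8 of the 12 arrays of the series, chosen by their titles, and 16724 genes with a measurable probe. The 4 A1G metastatic arrays come from metastases in Math1-cre;A1G;Ptch1+/- mice, in which Math1-cre places the Cre recombinase under control of Math1 (Atoh1), a factor of cerebellar granule neuron progenitors. The 4 Ptch1het arrays come from tumours of Ptch1+/- mice that carry neither of the other alleles in their labels, and 4 A1G primary arrays, from primary tumours of the A1G genotype, are set beside them. The Ptch1 heterozygous allele is therefore shared by all 3 groups. The labels do not expand A1G and do not give the animals' age or the site of the metastases. The genotype entry of metastatic replicates 2 and 3 is worded differently from that of replicates 1 and 4, since it names a metastatic tumour in those mice. Nothing in the labels states whether the 4 arrays of a group are different animals. The p-values below therefore rest on array-to-array spread within the groups, which may be technical.

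SHH medulloblastoma arises from granule neuron progenitors of the cerebellum. The Hedgehog ligand relieves the block that the receptor Ptch1 places on Smoothened, so that Gli factors switch on target genes, among them Ptch1 itself and the decoy receptor Hhip. Loss of Ptch1 function keeps this pathway active without ligand. Medulloblastoma spreads mainly along the cerebrospinal fluid to the meninges of brain and spinal cord.

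Values are log2 signals of each array after background correction and quantile normalisation, and differences are A1G metastatic minus Ptch1het. Genotype and site both differ between the groups, and their parts cannot be told apart. Of the 16724 genes, 1647 (9.85%) passed an adjusted p under 0.05 in limma with Benjamini-Hochberg adjustment: 1032 were higher (6.17%) and 615 lower (3.68%) in metastatic tumours. The higher calls held most of the large differences, with 196 genes (1.17%) at 4-fold or more against 11 lower genes (0.0658%). The median difference of all genes was -0.0811. In 926 higher genes (5.54% of all) and 543 lower genes (3.25%) the call came with groups that did not overlap. A1G metastatic against A1G primary tumours gave 873 calls (5.22%), of which 749 were higher (4.48%) and 124 lower (0.741%). A1G primary against Ptch1het tumours gave 6 calls (0.0359%), 1 higher (0.00598%) and 5 lower (0.0299%). These comparisons share arrays, so their counts are not independent of the 1647.

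The 2 directions differed in how far they rested on single arrays. When each of the 12 arrays was left out in turn, 590 of the 1032 higher calls (57.2%) passed every time, against 151 of the 615 lower calls (24.6%). Without metastatic replicate 2 the lower calls numbered 171, without metastatic replicate 4 they numbered 275, and without Ptch1het replicate 1 they numbered 342. Leaving out any other array gave between 419 and 627 lower calls. The higher calls came to 620, 732 and 761 without the same 3 arrays. For a gene below whose call did not pass all 12 fits, the text gives the arrays it rested on or the number of fits it passed.

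**Figure D1:**
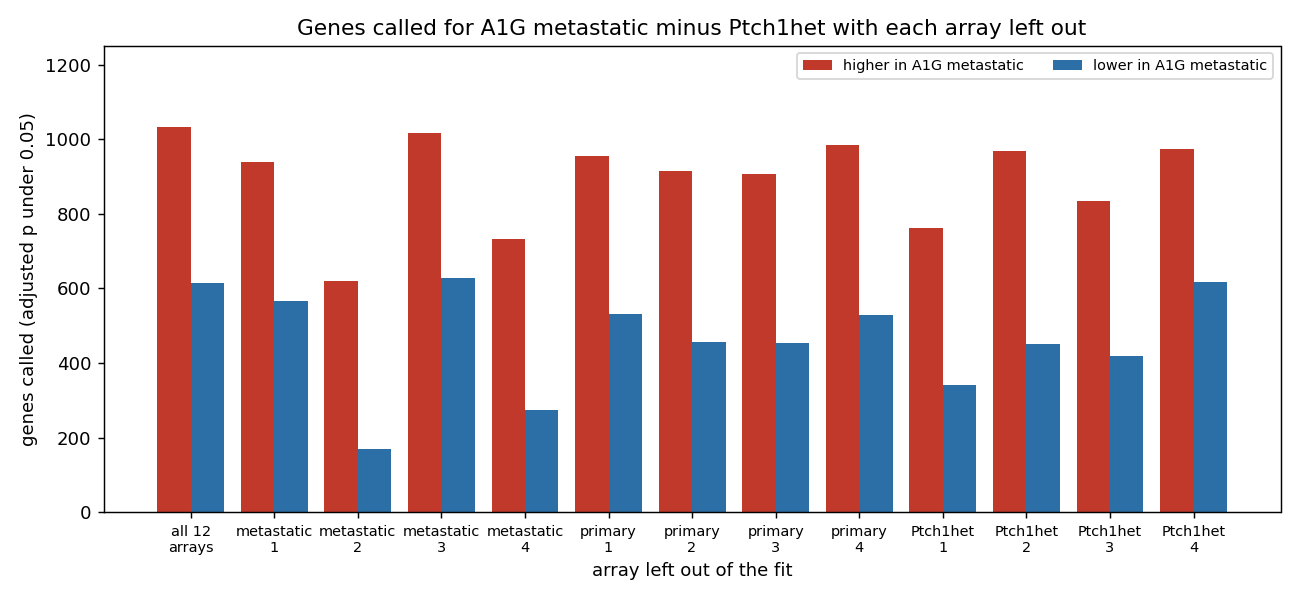
Number of genes called (vertical axis, adjusted p under 0.05) in A1G metastatic minus Ptch1het with all 12 arrays and with each array left out. Red bars are genes higher and blue bars genes lower in metastatic tumours. The lower calls reached their minimum of 171 without metastatic replicate 2, against 615 with all arrays.

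The eGFP probe read 13.51, 11.76, 11.88 and 11.47 in the 4 metastatic tumours, 13.08, 11.96, 11.67 and 12.42 in A1G primary tumours, and 8.09, 7.69, 7.18 and 7.36 in Ptch1het tumours. It separated both A1G groups from the Ptch1het tumours. Mean log2 signal over 17 granule progenitor factors lay between 10.66 and 11.11 in metastatic and between 10.88 and 11.01 in Ptch1het tumours. Atoh1, Gli1 and Mycn stayed below the array median throughout and were not tested. Markers of other tissues moved with the metastatic group. Mean log2 signal of 16 skeletal muscle genes was 10.94, 11.46, 7.83 and 9.82 in metastatic replicates 1 to 4 against 7.46 to 8.10 in Ptch1het tumours. The 14 peripheral neuron genes averaged 10.29 to 11.46 against 7.34 to 7.88, the 14 Schwann cell genes 9.75 to 10.15 against 7.47 to 7.80, and the 25 matrix genes 10.90 to 11.39 against 8.52 to 9.19. In bulk tissue, fewer cells of a type and less RNA per cell cannot be told apart, and the part of these markers in the differences below was not tested.

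**Figure D2:**
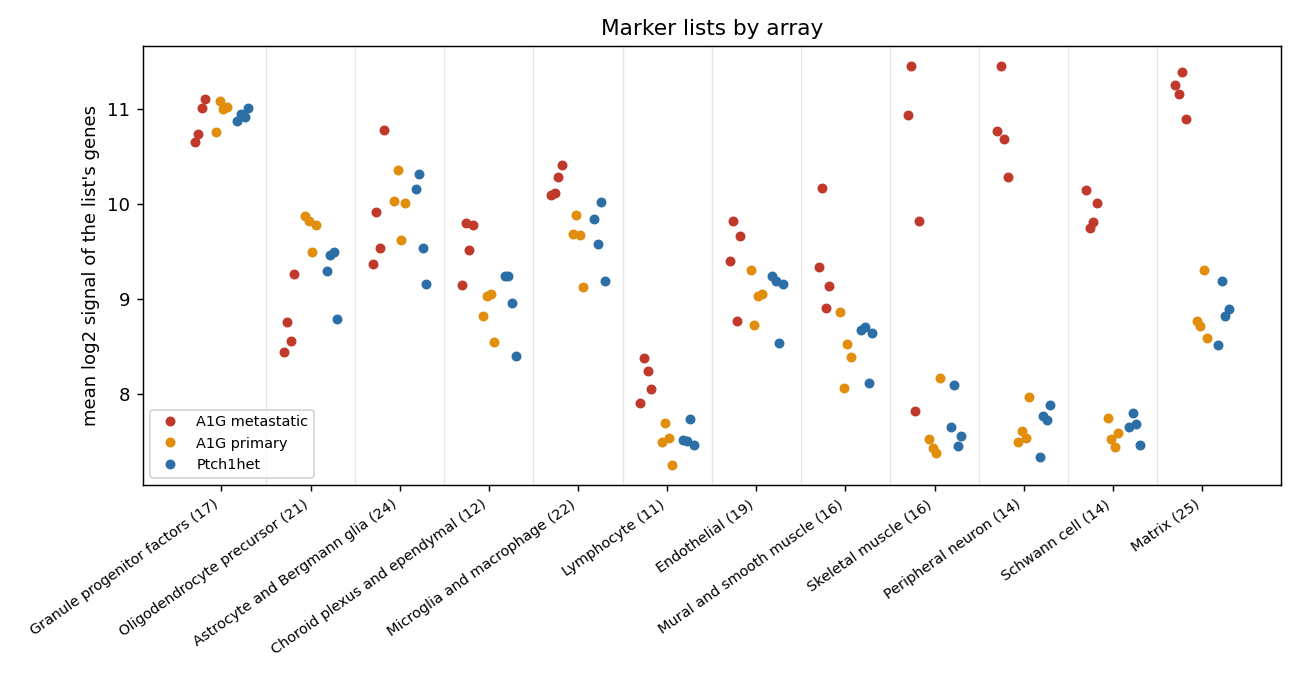
Mean log2 signal over the tested genes of marker lists (vertical axis) on each array, with A1G metastatic, A1G primary and Ptch1het tumours from left to right. Peripheral neuron, Schwann cell and matrix lists lay higher on all 4 metastatic arrays. The skeletal muscle list was high on metastatic replicates 1, 2 and 4, and read 7.83 on replicate 3. Granule progenitor factors overlapped between the groups.

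The most separated falls were those of Hrk and Tbx4. Hrk, a BH3-only promoter of apoptosis, read 6.89, 6.51, 6.67 and 6.23 in metastatic tumours, 6.84, 6.72, 6.53 and 6.73 in A1G primary tumours, and 8.71, 8.59, 8.30 and 9.17 in Ptch1het tumours. All metastatic arrays were at or below the array median of 7.05, so Hrk was at least 3.13-fold lower (difference -2.12, SE 0.19, adjusted p = 2.08e-05). Hrk was kept for testing through the 4 Ptch1het arrays alone, the only ones above that median. Tbx4, a T-box factor known from hindlimb and lung development, read 6.43, 7.03, 6.54 and 6.58 in metastatic, 7.04, 7.24, 7.13 and 7.12 in A1G primary, and 9.08, 8.77, 8.72 and 8.43 in Ptch1het tumours. It was at least 3.25-fold lower (difference -2.11, SE 0.16, adjusted p = 6.09e-06). For both genes the A1G primary tumours also lay below every Ptch1het tumour, and both were among the 5 genes called lower in A1G primary against Ptch1het tumours (adjusted p = 0.00102 for Hrk and 0.0011 for Tbx4).

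Lmo3, a LIM-only transcriptional cofactor of developing neurons, fell to 6.37, 7.30, 7.76 and 7.75 in metastatic tumours, against 9.09, 9.40, 9.79 and 9.45 in Ptch1het tumours. The difference was -2.14 (SE 0.32, 4.41-fold lower, adjusted p = 0.00123), and the A1G primary tumours lay between the other groups at 8.09, 8.99, 8.97 and 8.06. Irx5, an Iroquois homeobox factor, read 6.27, 6.35, 6.21 and 6.82 in metastatic, 8.20, 7.83, 6.46 and 6.97 in A1G primary, and 8.31, 8.89, 7.85 and 7.86 in Ptch1het tumours. It was at least 2.26-fold lower (difference -1.81, SE 0.35, adjusted p = 0.00685) and passed with any single array left out, though not without Ptch1het replicates 1 and 2 together. Its family member Irx2 read 6.45, 8.45, 9.63 and 8.50 in metastatic tumours and 10.42, 10.82, 10.25 and 10.10 in Ptch1het tumours. The Irx2 groups did not overlap (difference -2.14, SE 0.54, adjusted p = 0.0262), but the call was lost without metastatic replicate 2 or 4 or Ptch1het replicate 1 or 2 (adjusted p up to 0.0601). Irx3 did not pass (difference -0.22, adjusted p = 0.578).

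Among 24 tested transcription factors of hindbrain and sensory neuron lineages, 4 were lower (Tbx4, Irx5, Irx2 and Pou4f1) and 3 higher (Isl1, Isl2 and Tlx3), with a median difference of -0.218. Over all genes 3.68% were lower and 6.17% higher, with a median of -0.0811. These counts were 2 lower and 0 higher without metastatic replicate 2. Pou4f1, a POU factor of sensory neurons, had the order Ptch1het above metastatic above primary. It read 9.36, 9.87, 9.50 and 8.90 in metastatic, 6.58, 8.13, 6.36 and 7.61 in A1G primary, and 10.18, 10.75, 10.98 and 11.09 in Ptch1het tumours. The 3 groups did not overlap. The call against Ptch1het tumours (difference -1.34, SE 0.36, adjusted p = 0.0367) was lost without any one metastatic array or without Ptch1het replicate 2, 3 or 4 (adjusted p up to 0.101). Metastatic against A1G primary tumours gave a rise of 2.24 (adjusted p = 0.00225). Isl2, a LIM-homeodomain factor of motor and sensory neurons, read 8.13, 9.06, 8.47 and 7.72 in metastatic against 6.36, 7.60, 6.90 and 7.21 in Ptch1het tumours (difference 1.33, adjusted p = 0.0168), with peripheral neuron markers higher in the same arrays. Its call was lost without metastatic replicate 2 (adjusted p = 0.0523), and those of Isl1 and Tlx3 each passed in 6 of the 12 fits.

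**Figure D3:**
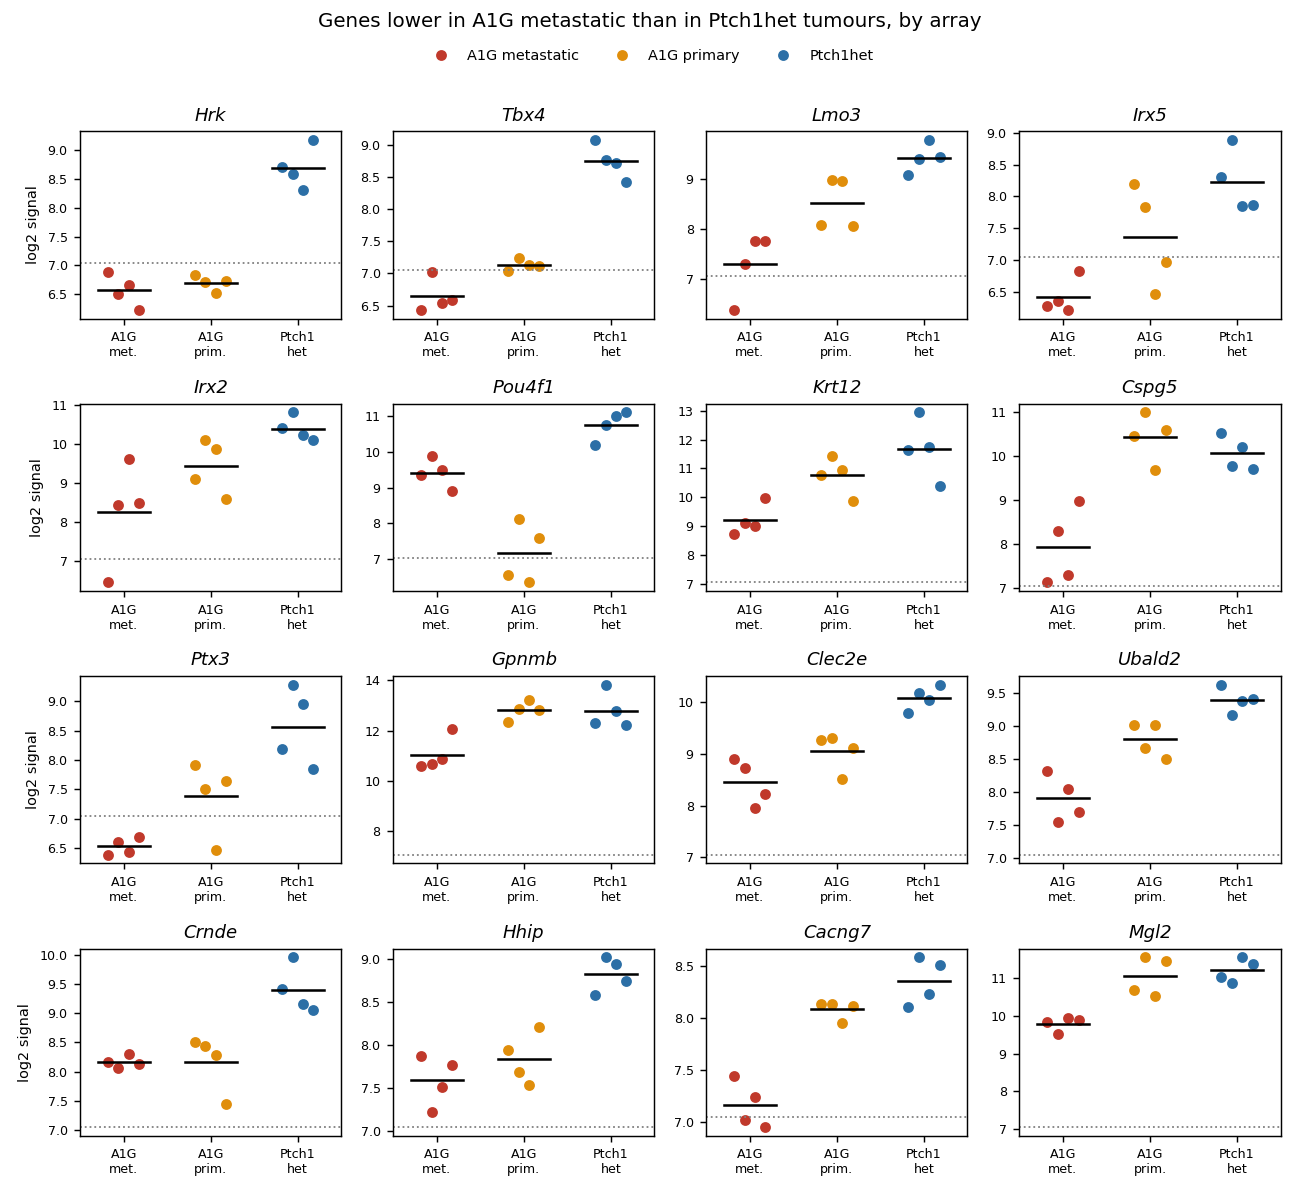
Log2 signal (vertical axis) of 16 genes lower in metastatic than in Ptch1het tumours, one panel each, with A1G metastatic, A1G primary and Ptch1het arrays from left to right. Points are arrays and bars are group means, and the dotted line is the array median of 7.05. In each panel the 4 metastatic arrays lie below the 4 Ptch1het arrays, while A1G primary tumours lie with the metastatic ones for Hrk and Crnde and with the Ptch1het ones for Cspg5.

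Krt12, a type I keratin best known from corneal epithelium, had the largest fall among the non-overlapping calls. It read 8.73, 9.11, 9.01 and 9.98 in metastatic, 10.78, 11.43, 10.93 and 9.88 in A1G primary, and 11.62, 12.94, 11.74 and 10.39 in Ptch1het tumours (difference -2.46, SE 0.47, 5.51-fold lower, adjusted p = 0.0065). Gpat2, a mitochondrial glycerol-3-phosphate acyltransferase, averaged 7.04 in metastatic, 6.86 in A1G primary and 9.44 in Ptch1het tumours (metastatic difference -2.41, adjusted p = 0.00348). Its metastatic mean lay at the array median, so no fold is given. Ubald2, a UBA-like domain protein, read 8.32, 7.55, 8.04 and 7.70 in metastatic against 9.62, 9.17, 9.37 and 9.40 in Ptch1het tumours (2.81-fold lower, adjusted p = 0.000303). Crnde, a long non-coding RNA, read 8.16, 8.06, 8.31 and 8.14 in metastatic against 9.42, 9.96, 9.16 and 9.05 in Ptch1het tumours (2.35-fold lower, adjusted p = 0.00759). In A1G primary tumours Crnde averaged 8.17. Crnde and Irx5 are neighbouring genes, and both fell. Tmem229a, a transmembrane protein, averaged 7.65 in metastatic, 7.31 in A1G primary and 8.90 in Ptch1het tumours (adjusted p = 0.00435 for the metastatic difference). It was also called lower in A1G primary against Ptch1het tumours (difference -1.58, adjusted p = 0.0257). Its second probe differed by only -0.27 between metastatic and Ptch1het tumours.

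The remaining names among the 30 largest non-overlapping falls include LOC276837, LOC381889, Gm7367 and OTTMUSG00000002038, whose symbols give no known role and whose calls passed all 12 fits. LOC382555 was called at an adjusted p of 0.0464, and the call passed in 2 of the 12 fits, namely without metastatic replicate 3 and without primary replicate 1. LOC276837 and LOC382555 averaged 7.99 and 8.39 in A1G primary tumours, near their metastatic means of 7.75 and 8.42. Hsd17b1, which converts estrone to estradiol, fell by 1.67 (adjusted p = 0.0333). Removing metastatic replicate 1, 2 or 3 or Ptch1het replicate 2, 3 or 4 ended the call. Pnlip, the pancreatic lipase, was dim on every metastatic array and at least 1.51-fold lower (adjusted p = 0.0266). Removing metastatic replicate 1 or 4 or Ptch1het replicate 1 or 3 ended the call. Cpne9, a copine, fell by 1.35 (adjusted p = 0.0323), with a second probe at -0.30, and its call was lost without metastatic replicate 2, 3 or 4 or Ptch1het replicate 1 or 4.

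Within the Hedgehog pathway, Hhip fell while the receptor and Gli2 did not pass. Hhip, a decoy receptor that binds the ligand and a target of the pathway, read 7.87, 7.22, 7.52 and 7.77 in metastatic, 7.94, 7.69, 7.54 and 8.21 in A1G primary, and 8.58, 9.02, 8.94 and 8.75 in Ptch1het tumours. The Ptch1het tumours lay above all 8 A1G arrays, and the metastatic difference was -1.22 (SE 0.18, 2.34-fold lower, adjusted p = 0.00132). Ptch1 read 11.62, 9.99, 10.73 and 10.41 in metastatic against 11.30, 11.14, 11.01 and 11.33 in Ptch1het tumours, and the groups overlapped (difference -0.51, adjusted p = 0.284). Gli2 also overlapped (difference 0.14, adjusted p = 0.749), and its other probe stood at -0.72. Cdon, a Hedgehog co-receptor, rose to a mean of 8.0 in metastatic tumours, against 6.78 in Ptch1het tumours (difference 1.22, adjusted p = 0.0129). Of the 15 tested genes of the pathway list, 1 was lower and 2 higher, with a median difference of -0.124. Sfrp1, the other gene called higher, is a secreted Wnt inhibitor. Its brightest probe differed by 0.61 (adjusted p = 0.0364) and another by -0.54, and the call was lost without metastatic replicate 1, 2 or 3, primary replicate 2, or Ptch1het replicate 1, 3 or 4.

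Genes of oligodendrocyte precursors moved in both directions. Cspg5, neuroglycan C, read 7.13, 8.30, 7.31 and 8.98 in metastatic, 10.47, 11, 9.68 and 10.60 in A1G primary, and 10.54, 9.78, 10.22 and 9.72 in Ptch1het tumours. The metastatic arrays lay below all others (difference -2.13, SE 0.39, 4.38-fold lower, adjusted p = 0.00505), although a second, dimmer probe differed by -0.40. Bmp4, a growth factor, rose to 8.47, 9.93, 8.94 and 9.41 in metastatic tumours, against 6.49, 7.38, 7.50 and 6.19 in Ptch1het tumours (difference 2.30, adjusted p = 0.0033). Of 21 tested genes of the list, 4 were lower (Cspg5, Lhfpl3, Ptprz1 and Scrg1) and 2 higher (Bmp4 and Sox10), with a median of -0.687, and the lower count ranged from 1 to 6 when single arrays were left out. The calls of Lhfpl3 and Scrg1 passed in 8 and 4 of the 12 fits. Ptprz1, a receptor tyrosine phosphatase of glial precursors, averaged 8.18 in metastatic against 9.98 in Ptch1het tumours, but its groups overlapped (adjusted p = 0.0324). This call did not survive removal of metastatic replicate 1, 2 or 3 or Ptch1het replicate 1, 2 or 3. Sox10, which marks both oligodendrocyte lineage and Schwann cells, read 11.32, 11.43, 11.41 and 12.34 in metastatic against 9.66, 10.59, 11.23 and 9.97 in Ptch1het tumours (difference 1.26, adjusted p = 0.0292). Its call was lost without metastatic replicate 2 or 4 or Ptch1het replicate 1 or 4, and Schwann cell genes were higher in the metastatic arrays. In A1G primary tumours Sox10 read 12.08, 11.53, 11.37 and 11.76, while the Schwann cell genes averaged 7.44 to 7.75 there. The part of Schwann cells in the Sox10 values was not tested. Metastatic against A1G primary tumours gave 10 lower and 1 higher of the 21, against 0.741% lower and 4.48% higher over all genes.

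Of 24 astrocyte and Bergmann glia genes, Hes5 and Slc1a3 were lower and the median was 0.162. The call of Slc1a3, the glutamate transporter GLAST, passed in 2 of the 12 fits. Hes5, an effector of Notch signalling, was dim on every metastatic array (6.95, 7.03, 6.81 and 6.57, against 8.88, 8.43, 7.46 and 7.34 in Ptch1het tumours) and at least 1.97-fold lower (adjusted p = 0.036). Its call was lost without any one metastatic array or without Ptch1het replicate 1 or 2. Slc6a11, a GABA transporter of astrocytes, read 8.42, 7.4, 6.97 and 8.34 in metastatic against 10.38, 8.82, 8.98 and 9.04 in Ptch1het tumours (difference -1.52, adjusted p = 0.0322). A second probe of Slc6a11 stood at -0.26, and the call was lost without metastatic replicate 2 or 3 or Ptch1het replicate 1.

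Among 18 tested ionotropic glutamate receptor genes with their auxiliary subunits, 3 were lower, among them Cacng7 and Cacng4, and 2 higher (Grik1 and Grin3a), with a median of -0.33. The lower count was 1 without metastatic replicate 2. Cacng7, an auxiliary subunit of AMPA receptors, read 7.44, 7.02, 7.24 and 6.95 in metastatic, 8.13, 8.13, 7.95 and 8.11 in A1G primary, and 8.10, 8.58, 8.23 and 8.51 in Ptch1het tumours (difference -1.19, SE 0.15, 2.29-fold lower, adjusted p = 0.000267). All metastatic arrays lay below all A1G primary and Ptch1het arrays. Cacng4, a related subunit, averaged 7.23 against 8.21 (adjusted p = 0.0249), a call lost without metastatic replicate 2 or Ptch1het replicate 1 or 2. Grik1, a kainate receptor subunit, rose to 9.59, 10.66, 9.35 and 9.33 in metastatic tumours, against 8.27, 7.58, 8.60 and 7.53 in Ptch1het tumours (difference 1.74, adjusted p = 0.00358). Other, dimmer Grik1 probes that were kept stood at 0.53 and 0.09. Grin3a, an NMDA receptor subunit, read 11.96, 11.72, 12.47 and 12.12 in metastatic, 12.06, 12.17, 12.17 and 12.22 in A1G primary, and 11.42, 10.45, 11.48 and 10.61 in Ptch1het tumours (difference 1.08, adjusted p = 0.0132). Cacna2d1, a calcium channel subunit, fell by 0.93 on its brightest probe (adjusted p = 0.00413), while another of its probes stood at 0.28.

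In amino acid supply, Asns and Gpt2 were lower in metastatic tumours, and most other genes of the lists below did not pass. ATF4, the transcription factor of the amino acid response, binds composite elements in genes for amino acid synthesis, transport and tRNA charging. Asns, asparagine synthetase, read 11.73, 12.20, 11.73 and 12.40 in metastatic, 12.82, 13.12, 12.01 and 14.05 in A1G primary, and 13, 13.55, 14.19 and 13.61 in Ptch1het tumours. Every metastatic array lay below every Ptch1het array (difference -1.57, SE 0.37, 2.97-fold lower, adjusted p = 0.0191), and the call was lost without Ptch1het replicate 3 (adjusted p = 0.0516). Gpt2, mitochondrial alanine aminotransferase, read 9.83, 9.90, 10.13 and 10.23 in metastatic against 10.96, 11.75, 11.08 and 10.82 in Ptch1het tumours (2.19-fold lower, adjusted p = 0.0191), a call lost without metastatic replicate 2 (adjusted p = 0.0596). Chac1, which degrades glutathione, averaged 9.48 in metastatic against 11.53 in Ptch1het tumours and did not pass (adjusted p = 0.0581). Slc7a3, a cationic amino acid transporter, had non-overlapping groups of 7.83, 9.14, 8.35 and 9.42 against 9.51, 10.78, 12.03 and 11.15, and did not pass either (adjusted p = 0.0573).

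Of 33 tested genes of a list of ATF4 targets put together after the values were seen, 5 were lower (Asns, Gpt2, Bcat1, Mthfd2 and Aldh1l2) and 0 higher, with a median of -0.588. At an unadjusted p under 0.05, limma gave 17 lower and 2 higher genes. The share of all genes at that threshold, or with a difference below 0, was not counted. Such counts, here and below, are therefore not set against other genes. In the separate list of amino acid and one-carbon genes, 3 of 20 were lower and 1 higher, with a median of -0.405, and 1 was lower without metastatic replicate 2 or 4 or Ptch1het replicate 3 or 4. Bcat1, a branched-chain aminotransferase, fell by 0.88 (adjusted p = 0.0363). Its call was lost without metastatic replicate 2, 3 or 4 or Ptch1het replicate 1 or 4. Mthfd2, a mitochondrial folate enzyme, read 12.62, 11.87, 12.40 and 12.13 in metastatic against 12.84, 13.21, 13.88 and 13.57 in Ptch1het tumours (adjusted p = 0.0433). Its call passed without metastatic replicate 1, primary replicate 3 or 4, or Ptch1het replicate 1, and in no other such fit. Aldh1l2, another mitochondrial folate enzyme, fell by 1.46 (adjusted p = 0.0458), and its call passed without primary replicate 1 or 4 or Ptch1het replicate 1 and in no other such fit. Only 1 gene of the 33 was called lower without metastatic replicate 2.

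Ass1, argininosuccinate synthetase of arginine synthesis, went the other way. It read 8.95, 8.63, 8.66 and 8.46 in metastatic, 7.21, 7.0, 6.90 and 6.92 in A1G primary, and 6.81, 7.0, 7.27 and 7.11 in Ptch1het tumours, a 3.09-fold rise (adjusted p = 2.04e-05). Among the 20 cytosolic aminoacyl-tRNA synthetases, a list also chosen after the values were seen, 4 were lower (Eprs, Sars, Mars1 and Nars) and the median was -0.348. Eprs, which charges glutamate and proline tRNAs, read 10.05, 8.80, 9.27 and 9.58 in metastatic against 10.71, 10.90, 10.71 and 10.13 in Ptch1het tumours (2.28-fold lower, adjusted p = 0.0127). Sars, the seryl enzyme, fell by 0.72 (adjusted p = 0.0132). Both passed all 12 fits, but both lost the call when all kept probes of the gene were averaged. Mars1 and Nars passed in 9 and 7 of the 12 fits, and without metastatic replicate 2 or Ptch1het replicate 2, 2 synthetases were called. ER stress genes, some of which respond to the same factor, gave 2 lower of 20 (Pdia4 and Calr) and, at an unadjusted p under 0.05 in limma, 4. Without metastatic replicate 2 both calls were lost, and Calr passed in 5 of the 12 fits. Pdia4 averaged 11 in metastatic, 10.94 in A1G primary and 11.84 in Ptch1het tumours.

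**Figure D4:**
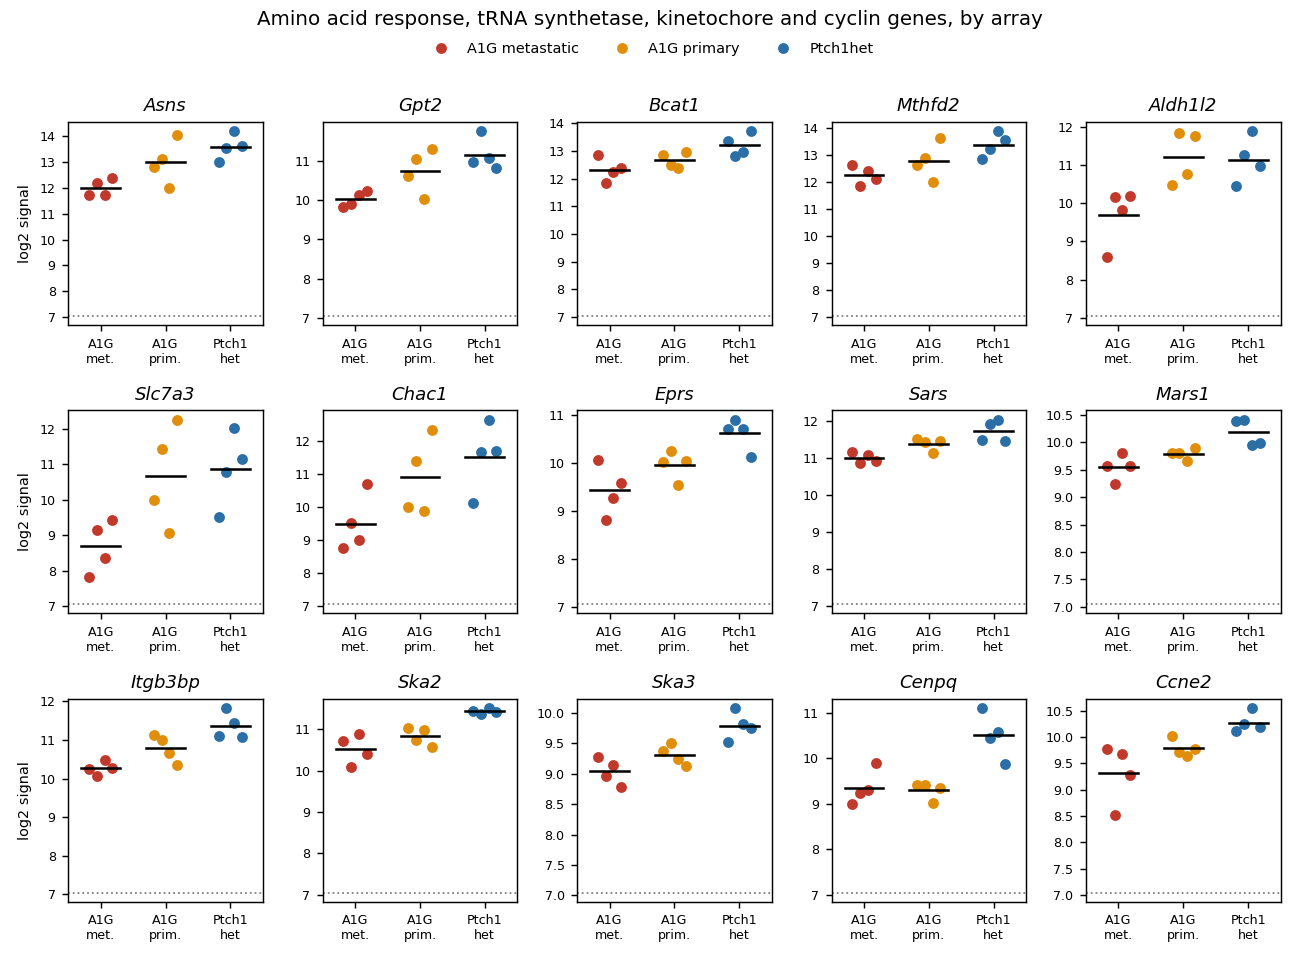
Log2 signal (vertical axis) of genes of amino acid supply, tRNA charging and chromosome segregation on each array, with A1G metastatic, A1G primary and Ptch1het tumours from left to right. Points are arrays, bars are group means and the dotted line is the array median. Asns and Slc7a3 show 4 metastatic arrays below 4 Ptch1het arrays, with A1G primary tumours spread across both, and Chac1 shows overlapping groups.

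Promoters of the 3 amino acid response genes follow, because Asns and Chac1 are textbook targets of ATF4 while Mthfd2 fell with no such element in this window. Each spans 300 bases around the start site and comes from RefSeq on GRCm38.p6, at chr6:7693160-7693459 (minus strand) for Asns, chr2:119350992-119351291 (plus strand) for Chac1 and chr6:83317555-83317854 (minus strand) for Mthfd2. Capitals mark matches to TGATGNAA on either strand, the reverse being TTNCATCA.
Asns: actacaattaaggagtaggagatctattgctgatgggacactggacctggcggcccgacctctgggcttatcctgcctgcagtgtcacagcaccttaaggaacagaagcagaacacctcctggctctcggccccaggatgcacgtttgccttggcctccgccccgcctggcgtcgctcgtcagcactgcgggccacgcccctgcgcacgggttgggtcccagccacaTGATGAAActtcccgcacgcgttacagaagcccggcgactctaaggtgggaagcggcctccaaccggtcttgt
Chac1: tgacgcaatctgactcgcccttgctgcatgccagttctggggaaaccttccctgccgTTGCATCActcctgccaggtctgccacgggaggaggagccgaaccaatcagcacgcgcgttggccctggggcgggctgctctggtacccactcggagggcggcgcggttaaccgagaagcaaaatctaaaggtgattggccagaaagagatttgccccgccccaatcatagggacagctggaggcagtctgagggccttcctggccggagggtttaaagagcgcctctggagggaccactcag
Mthfd2: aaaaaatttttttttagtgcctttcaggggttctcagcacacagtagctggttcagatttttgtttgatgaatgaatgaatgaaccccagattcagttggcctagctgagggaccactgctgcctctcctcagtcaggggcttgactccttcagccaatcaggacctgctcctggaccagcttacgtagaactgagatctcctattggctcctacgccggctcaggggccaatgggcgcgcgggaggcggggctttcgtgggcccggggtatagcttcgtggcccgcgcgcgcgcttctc
The motif stood in 1304 of 32851 promoters in the table (3.97%). Counted by gene, it stood in 297 of the 10186 tested genes with a promoter (2.92%). Of the 33 tested ATF4 list genes, 29 had a promoter and 11 of these held the motif. Of the 5 genes called lower, 4 had a promoter, and Asns alone held it. Among the synthetases, 5 of 13 promoters held it, and 0 of the 3 available promoters of lower members did. A match describes these letters and is not a binding site. The Gli motif GACCACCCA, on either strand, was in 0 of the 9 Hedgehog list genes with a promoter. It was in 26 of the 10186 tested genes (0.255%) and in 83 of the 32851 promoters (0.253%).

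In chromosome segregation, Itgb3bp, Ska2 and Ska3 fell, while 31 of 37 kinetochore and inner centromere genes did not pass. Itgb3bp, the centromere protein CENP-R, read 10.25, 10.07, 10.49 and 10.27 in metastatic, 11.12, 11, 10.67 and 10.35 in A1G primary, and 11.11, 11.83, 11.43 and 11.09 in Ptch1het tumours (2.14-fold lower, adjusted p = 0.00518). Ska2, of the complex that couples kinetochores to microtubules, read 10.72, 10.08, 10.89 and 10.41 in metastatic against 11.45, 11.38, 11.52 and 11.43 in Ptch1het tumours (1.89-fold lower, adjusted p = 0.00588). Its partner Ska3 fell by 0.75 (adjusted p = 0.0105). Of 37 kinetochore and inner centromere genes, a list put together after the values were seen, 6 were lower, with Cenpq, Cenpw and Spc25 as the others, and the median was -0.257. For A1G primary minus Ptch1het tumours the median of this list was -0.276. Without metastatic replicate 2 or 4, or Ptch1het replicate 2 or 3, 4 genes were called. Cenpq fell by 1.15 with overlapping groups (adjusted p = 0.0126). Cenpw fell by 0.89 on its brightest probe (adjusted p = 0.0291) but stood at 0.22 on another, and its call was lost without metastatic replicate 2 or 4 or Ptch1het replicate 2 or 3. Spc25 passed in 4 of the 12 fits. A1G primary minus Ptch1het differences were -1.21 for Cenpq and -0.9 for Cenpw, neither of them called.

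In the wider cell cycle list, 3 of 33 genes were lower (Cdk6, Ccne2 and Ccna2) and 0 higher, with a median of -0.221 and 30 of 33 differences below 0. Over all genes the median, itself below 0, was -0.0811. For this list A1G primary minus Ptch1het gave a median of -0.22, and metastatic minus A1G primary 0.012. The medians of -0.221 and -0.22 subtract the same Ptch1het arrays, so their likeness cannot show a shared shift. Mean log2 signal of the list was 11.843 to 12.096 in Ptch1het tumours. Metastatic replicates 1 and 3 (12.029 and 11.927) and primary replicate 1 (11.996) lay in that range. Metastatic replicates 2 and 4 (11.329 and 11.354) and primary replicates 2, 3 and 4 (11.569, 11.768 and 11.448) lay below it. At an unadjusted p under 0.05, limma gave 8 lower and 0 higher. Ccne2, cyclin E2, read 9.77, 8.52, 9.67 and 9.27 in metastatic against 10.11, 10.25, 10.55 and 10.19 in Ptch1het tumours (adjusted p = 0.0224), a call lost without metastatic replicate 4 or Ptch1het replicate 3. Cdk6, a G1 kinase, fell by 1.02 (adjusted p = 0.0178), a call lost without metastatic replicate 2 or 4 or Ptch1het replicate 1. Ccna2, cyclin A2, averaged 7.25 in metastatic, 7.08 in A1G primary and 8.05 in Ptch1het tumours, and passed in 6 of the 12 fits. Without metastatic replicate 4, 0 of the 33 were called. In the DNA repair list, 0 of 28 genes passed in limma, and at an unadjusted p under 0.05 7 were lower and 0 higher.

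Families of general gene expression held some lower genes, while most members did not pass. Of 72 mitochondrial ribosomal protein genes, 9 were lower and 0 higher, with a median of -0.249, and 67 differences were below 0. For A1G primary minus Ptch1het tumours the median of this family was -0.231. At an unadjusted p under 0.05, limma gave 21 lower and 0 higher. Mrpl35 read 8.71, 8.41, 8.84 and 8.42 in metastatic, 9.15, 8.85, 8.59 and 9.02 in A1G primary, and 9.78, 9.31, 9.98 and 9.76 in Ptch1het tumours (2.16-fold lower, adjusted p = 0.00184). Mrps25 fell by 0.85 (adjusted p = 0.0108) and Mrps16 by 0.70 (adjusted p = 0.0178), and all 3 calls passed the 12 fits. The family had 3 calls without metastatic replicate 2 or 4. Of 86 tested genes with an Rpl or Rps symbol, the cytosolic ribosomal proteins along with some pseudogenes and ribosomal S6 kinases, 3 were lower and 1 higher. Their median was -0.192, 73 differences were below 0, and limma gave 14 lower and 2 higher at an unadjusted p under 0.05. The lower count was 0 of 86 without metastatic replicate 2 or 4. A short list within this family gave 0 of 20 in limma and 1 lower at an unadjusted p under 0.05, and 23 oxidative phosphorylation genes gave 0 and 2 lower.

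Of 24 genes of the LSm, Sm and SMN complexes, which assemble spliceosomal RNPs, 8 were lower, with a median of -0.399. Gemin6, an SMN complex subunit, read 10.78, 9.82, 10.74 and 10.36 in metastatic against 11.54, 11.50, 11.08 and 11.32 in Ptch1het tumours (1.91-fold lower, adjusted p = 0.0136). Lsm3 averaged 12.38 against 13.23 (adjusted p = 0.0214), a call lost without metastatic replicate 2 or 4 or Ptch1het replicate 1. The count was 1 without metastatic replicate 2 and 2 without metastatic replicate 4. Of 52 genes of general transcription factors and Mediator, the complex that links activators to RNA polymerase II, 8 were lower with a median of -0.256. Med21 read 10.88, 10.73, 11.28 and 10.95 in metastatic against 12.39, 11.68, 11.81 and 12.14 in Ptch1het tumours (2.06-fold lower, adjusted p = 0.00273). The count was 1 of 52 without metastatic replicate 2 or 4. Both lists were chosen after the values were seen. In the Zfp family of zinc finger genes, 16 of 256 were lower and 3 higher, with a median of -0.223, and without metastatic replicate 2 the lower count was 3. Zfp560 fell by 0.62 (adjusted p = 0.0134), while Zfp469 rose by 1.06 (adjusted p = 0.003). The splicing factor list gave 0 of 29 in limma and, at an unadjusted p under 0.05, 5 lower.

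Several secreted and immune genes fell although most host marker lists were higher. Ptx3, a long pentraxin of innate immunity, read 6.38, 6.60, 6.43 and 6.69 in metastatic, 7.91, 7.51, 6.46 and 7.64 in A1G primary, and 8.18, 9.28, 8.95 and 7.84 in Ptch1het tumours. It was at least 2.86-fold lower (adjusted p = 0.00242). Gpnmb, a transmembrane glycoprotein of macrophages and pigment cells, read 10.59, 10.65, 10.86 and 12.05 in metastatic, 12.32, 12.85, 13.22 and 12.82 in A1G primary, and 12.30, 13.82, 12.78 and 12.22 in Ptch1het tumours (3.35-fold lower, adjusted p = 0.0134). The metastatic arrays lay below all others. Mgl2, a lectin of macrophages and dendritic cells, read 9.83, 9.52, 9.96 and 9.89 in metastatic against 11.03, 10.87, 11.56 and 11.38 in Ptch1het tumours (2.65-fold lower, adjusted p = 0.00317), with a second probe at -0.67. Clec2e, a C-type lectin, read 8.90, 8.73, 7.95 and 8.23 in metastatic against 9.79, 10.18, 10.05 and 10.34 in Ptch1het tumours (3.11-fold lower, adjusted p = 0.000849), with a second probe at -0.32. Cxcl1, a neutrophil chemokine, read 7.91, 8.01, 7.65 and 8.06 in metastatic against 8.41, 10.80, 10.98 and 9.12 in Ptch1het tumours (adjusted p = 0.042). Its call passed without primary replicate 2 or Ptch1het replicate 1 or 4 and in no other such fit. Igfbp2, a carrier of insulin-like growth factors, fell by 1.48 (adjusted p = 0.035), a call lost without metastatic replicate 1, 2 or 3 or Ptch1het replicate 1, 2 or 3.

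In contrast, of 22 microglia and macrophage genes 4 were higher and 0 lower, with a median of 0.59, and without metastatic replicate 3 only 1 was called. At an unadjusted p under 0.05, limma gave 0 lower genes in this list too. Tmem119, a microglial membrane protein, read 8.72, 8.53, 8.71 and 8.94 in metastatic against 8.03, 7.95, 7.76 and 7.38 in Ptch1het tumours (adjusted p = 0.00763). Of 11 lymphocyte genes 5 were higher. Ighm, the IgM heavy chain, read 8.21, 9.33, 8.78 and 9.13 in metastatic against 7.17, 7.09, 7.71 and 6.75 in Ptch1het tumours (3.21-fold, adjusted p = 0.00269). Without metastatic replicate 2, 3 lymphocyte genes were called.

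Of 24 tested interferon-induced and MHC genes, 9 were higher, against 6.17% over all genes, and the median was 1.125. All 24 differences were above 0, a share not counted over all genes. H2-D1, a class I heavy chain, read 12.50, 12.57, 12.45 and 11.89 in metastatic, 11.84, 11.55, 11.88 and 11.21 in A1G primary, and 10.74, 10.66, 11.31 and 10.34 in Ptch1het tumours. All metastatic arrays lay above all others, and the rise over Ptch1het tumours was 3.01-fold (adjusted p = 0.000828), although another probe stood at -0.28. Cd74, the invariant chain of class II, read 11.30, 12.42, 11.26 and 12.58 in metastatic against 8.60, 9.26, 10.03 and 9.70 in Ptch1het tumours (5.63-fold, adjusted p = 0.00453). Without metastatic replicate 2, 2 genes were called, and without metastatic replicate 4, 5 were. Lymphocyte markers averaged 7.91 to 8.38 in metastatic against 7.47 to 7.74 in Ptch1het tumours, and other host lists, among them macrophage and matrix genes, were higher too. The part of any cell type in the interferon and MHC values was not tested.

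Serpinf1 and the complement regulators Cd59a and Cd55 were higher. Serpinf1, a secreted serpin, read 13.22, 13.64, 13.44 and 12.85 in metastatic against 8.71, 9.67, 10.31 and 9.77 in Ptch1het tumours (12.8-fold, adjusted p = 5.37e-05), while a second probe stood at 0.06. Cd59a, which blocks the membrane attack complex, read 12.45, 12.76, 11.85 and 12.02 in metastatic against 8.19, 10.34, 9.2 and 8.50 in Ptch1het tumours (9.29-fold, adjusted p = 0.000179). Cd55, which speeds decay of complement convertases, was at least 2.71-fold higher (adjusted p = 0.000112). Its probe was kept for testing through the 4 metastatic arrays alone. Of 25 complement and coagulation genes 8 were higher, with a median of 0.487. Of 15 serpins 5 were higher.

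Some annexins and S100 proteins, which bind calcium and in part each other, were higher. Anxa2 read 14.03, 14.61, 14.16 and 13.90 in metastatic, 11.85, 11.29, 11.84 and 11.84 in A1G primary, and 11.70, 11.72, 11.70 and 11.46 in Ptch1het tumours (5.77-fold, adjusted p = 2.54e-06). Its binding partner S100a10 averaged 10.21 against 8.82 (adjusted p = 0.00963). S100a6 rose 4.65-fold (adjusted p = 0.0014) and Anxa5, which binds phosphatidylserine, 4.31-fold (adjusted p = 0.000207). Of 9 annexins 5 were higher with a median of 1.005, and of 11 S100 proteins 3 were higher. Small heat shock proteins followed the same direction. Hspb8 read 12.36, 12.91, 12.06 and 12.38 in metastatic against 9.41, 10.58, 9.58 and 9.72 in Ptch1het tumours (6.08-fold, adjusted p = 9.58e-05), and its partner Bag3 rose 2.97-fold (adjusted p = 0.00326). Hspb1 was 4.32-fold higher (adjusted p = 0.000315), and these were the 3 called genes among 15 of the heat shock list. Matrix and Schwann cell markers were higher in the same arrays, and skeletal muscle markers in metastatic replicates 1, 2 and 4.

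In lipid metabolism, Scd1, the stearoyl-CoA desaturase, read 11.34, 15.02, 12.20 and 13.36 in metastatic, 9.22, 8.65, 8.45 and 9.74 in A1G primary, and 9.75, 8.91, 8.13 and 8.54 in Ptch1het tumours (17.7-fold, adjusted p = 0.00152). The groups did not overlap, and among the metastatic arrays replicate 2 was the highest and replicate 1 the lowest. Cfd, the adipocyte protease adipsin, varied in the same way at 7.67, 14.27, 10.24 and 12.75 in metastatic against 7.19, 7.23, 6.68 and 6.75 in Ptch1het tumours, and its call (adjusted p = 0.0207) was lost without metastatic replicate 4. Of 19 lipid genes 4 were higher, with a median of 0.761, and 2 were called without metastatic replicate 4 or without Ptch1het replicate 3. Mean log2 signal of 4 tested adipocyte genes, with Cfd and Adipoq also in the lipid list, was 7.79, 11.23, 8.04 and 9.86 in metastatic replicates 1 to 4, against 6.94 to 7.51 in Ptch1het tumours. The part of adipocyte RNA in these values was not tested. Among 28 glutathione and redox genes 4 were higher, led by Gstm2, a glutathione transferase (5.99-fold, adjusted p = 0.000716).

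Of 60 potassium channel genes 7 were higher and 1 lower. Kcnc4, a Kv3 channel, read 10.56, 11.75, 10.42 and 11.15 in metastatic, 8.34, 7.02, 7.05 and 9.30 in A1G primary, and 7.24, 6.87, 6.88 and 6.47 in Ptch1het tumours (difference 4.11, adjusted p = 0.000114). Kcna6, a Kv1 channel, rose 8.35-fold (adjusted p = 0.00027). Of 16 regulators of G protein signalling 5 were higher, and 2 without metastatic replicate 2. Rgs10 read 10.89, 11.56, 11.31 and 11.16 in metastatic against 9.80, 9.21, 9.83 and 8.91 in Ptch1het tumours (3.46-fold, adjusted p = 0.000354). Peripheral neuron markers were higher in the same arrays. In the signalling lists, 5 of 23 Wnt genes were higher and 2 lower, and 6 of 22 BMP and TGF-beta genes were higher, against 6.17% higher and 3.68% lower over all genes. The lower Wnt count was 0 without metastatic replicate 2 or 4 or Ptch1het replicate 1 or 2. Sfrp4, a secreted Wnt inhibitor, was at least 2.16-fold higher (adjusted p = 0.000526), and Tgfbr2, a TGF-beta receptor, 2.49-fold higher (adjusted p = 0.00279). The Sfrp4 probe was kept for testing through the 4 metastatic arrays alone. A second, dimmer Tgfbr2 probe stood at 0.02. Of 18 tested immediate early genes 3 were higher, namely the Krüppel-like factors Klf2, Klf4 and Klf6. Without Ptch1het replicate 1, Klf2 alone was called, and the Klf6 call was also lost without metastatic replicate 1, 2 or 4.

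**Figure D5:**
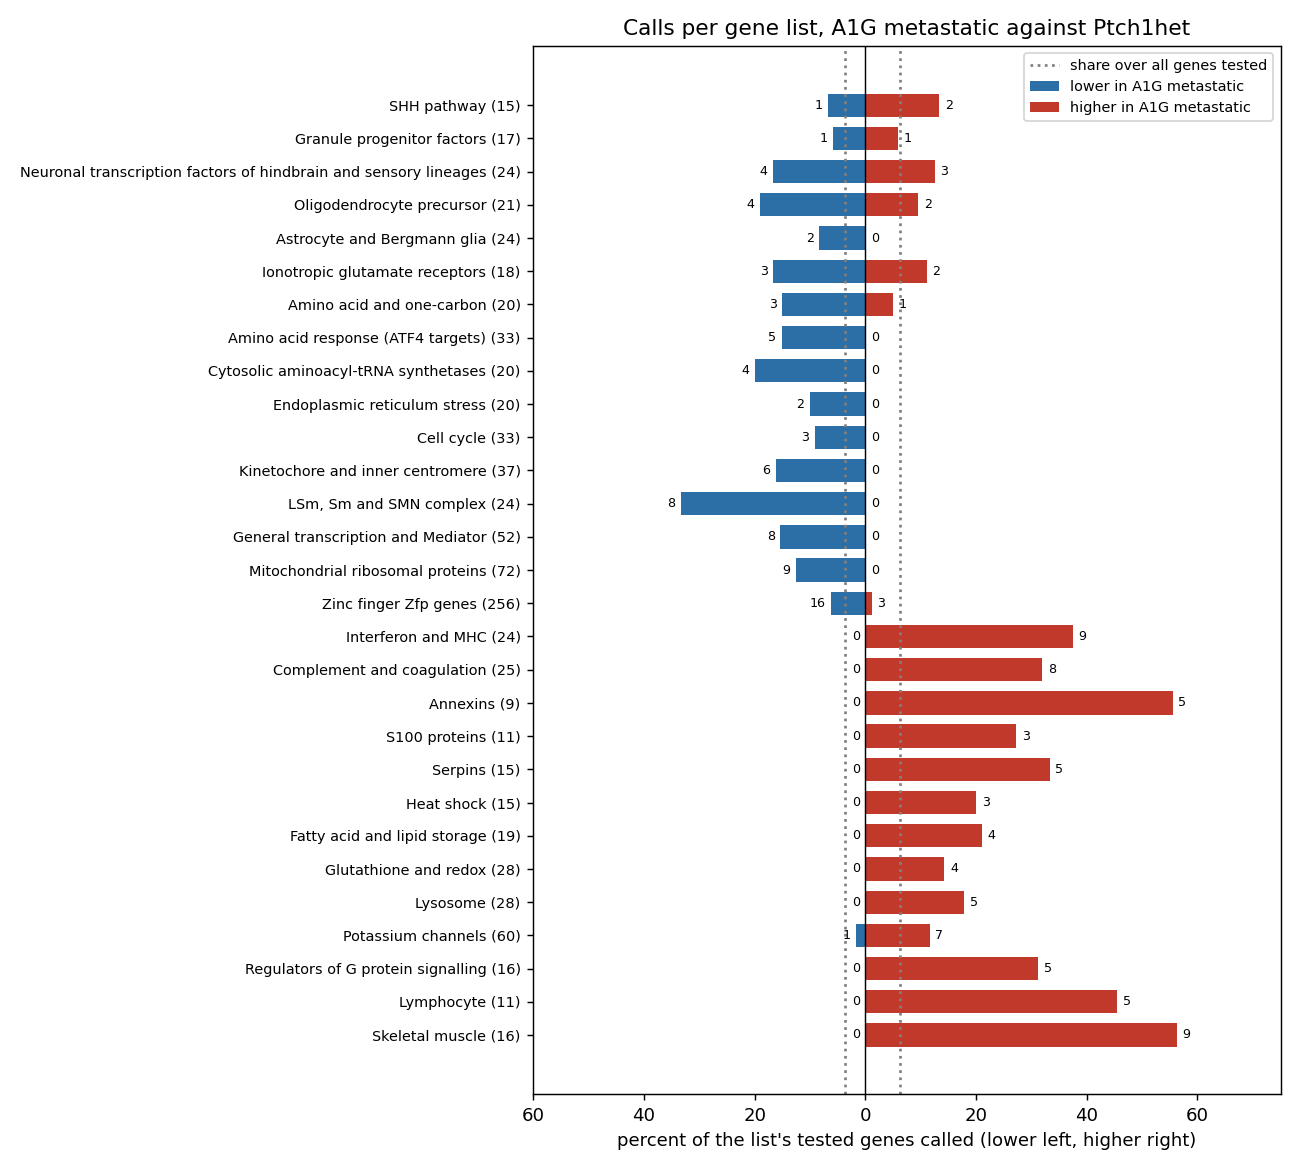
Share of the tested genes of each list called in A1G metastatic minus Ptch1het (horizontal axis, percent; lower to the left in blue, higher to the right in red). Dotted lines mark the shares over all genes, 3.68% lower and 6.17% higher. Numbers in brackets are genes tested and numbers at the bars are genes called. Of the lists drawn, skeletal muscle and annexins reach farthest to the right, and the LSm, Sm and SMN list reaches farthest to the left. The LSm, Sm and SMN list was chosen after the values were seen, and held 1 lower call without metastatic replicate 2.

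Markers of other tissues varied between metastatic arrays. Of 16 skeletal muscle genes 9 were higher, with a median of 2.204, and 2 without metastatic replicate 2. Tnni2, a fast troponin, read 11.98, 12.56, 7.97 and 10.39 in metastatic against 7.14, 6.92, 6.73 and 6.73 in Ptch1het tumours (adjusted p = 0.00579). Metastatic replicate 3 read far lower than the other metastatic arrays. Plvap, a protein of fenestrated endothelium, read 10.08, 9.60, 9.63 and 9.44 in metastatic against 7.99, 7.95, 7.72 and 7.91 in Ptch1het tumours (3.48-fold, adjusted p = 3.84e-05). Of 19 endothelial genes 3 were higher, and 1 without metastatic replicate 2 or 4 or Ptch1het replicate 3. Of 16 mural cell genes 6 were higher, among them Pdgfrb, a pericyte receptor (2.64-fold, adjusted p = 0.00288). The choroid plexus and ependymal list gave 2 higher and 2 lower of 12 (0 lower without metastatic replicate 2 or 3 or Ptch1het replicate 1 or 2), with Aqp1, a water channel, 8.51-fold higher (adjusted p = 0.00334). Among the 12 largest non-overlapping rises were Prph, Scn11a, Sncg, Avil, Hoxc6, LOC100045304, Tmem45b, Ogn, eGFP, Calca and Cfd, most of them genes of peripheral neurons, Schwann cells or matrix. As counts alone, 20 of 25 matrix, 12 of 14 peripheral neuron, 11 of 14 Schwann cell and 10 of 18 Hox genes were higher.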

How the data were processed

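Tumour RNA was read on 12 Illumina BeadChip arrays. The values the authors deposited are probe intensity on a linear scale, already normalized, with the method not given in the sources used here (median 187.01 on each array). A second deposited table holds 24 per-array columns that match no sample label. These columns were not used, so the planned neqc correction and detection filter were replaced by normexp and a signal filter. That table's annotation gave the gene symbols. Its header shows 2 chips of 6 arrays without naming samples, so a chip effect could not be tested. For arrays, their number limits the precision.

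With limma 3.58.1 (R 4.3.3), normexp correction with an offset of 50 was followed by quantile normalization and log2. Probes above their array's median on at least 4 of 12 arrays were kept (24443 of 45281). A gene could thus be kept through a single group where it was high. Hrk was kept through the Ptch1het arrays alone, and Cd55, Sfrp4, Hoxc6, LOC100045304 and Tmem45b through the metastatic arrays alone. The brightest probe stood for each gene: 16724 genes, 11491 with 1 probe and 5233 with several. A model with 3 groups was fitted to all 12 arrays (lmFit and eBayes, 9 residual degrees of freedom) and a gene counted as called when its p, adjusted by Benjamini-Hochberg over all genes, was under 0.05. Means at or below the median of 7.05 give "at least" folds against that median when every array of the group was dim, and no fold when only some were.

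Genes were named by rule: the 30 largest falls and 12 largest rises among called genes with non-overlapping groups, Ptch1, Gli1, Gli2, Mycn, Atoh1, eGFP, Pou4f1, Hrk and Tbx4, and up to 5 members of a described list by smallest p. Some genes that this rule takes are not reported here. Other genes were chosen after their values were seen. The groups, gene lists and members were chosen with earlier results of these data known, and 8 lists were put together after values were seen in the present work, so no list carries a test. In data simulated on 16724 genes with 200 changed, the fit recovered 66% of 2-fold rises, 80% of 2-fold falls and 96% of 4-fold changes in each direction, with 8 false calls. The simulated noise was normal, independent between genes and arrays, and of equal spread in all groups. Shifts shared by many genes of an array were not simulated, so these figures may not hold for the real arrays. Alternatives covered background correction, normalisation, filters, probe summary, arrays fitted, a replicate block, array weights, each array left out, and 2 settings added after the data were seen. Figures were drawn with matplotlib 3.10.9.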

Additional observations from a re-analysis of the deposited data

Results flagged for a closer look

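Among 121 named genes, 242 groups of 4 arrays were examined for a single array far from the other 3. In 8 of them the distance to the nearest array exceeded Dixon's critical share of the group's range, 5 in metastatic and 3 in Ptch1het tumours. Chance alone gives about 1 such group in 20. Metastatic replicate 2 stood apart for Anxa5 at 13.52 (others 12.89 to 12.98) and for Tmem45b at 12.40 (others 10.30 to 10.51). Metastatic replicate 3 was low for Cpne9 at 8.19 (others 9.12 to 9.28) and high for Sfrp4 at 8.85 (others 7.93 to 7.94). Metastatic replicate 4 was high for Sox10 at 12.34 (others 11.32 to 11.43).

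In Ptch1het tumours, replicate 4 was low for Anxa2 at 11.46 (others 11.70 to 11.72) and for LOC276837 at 8.41 (others 9.62 to 9.78). Replicate 1 was high for Slc6a11 at 10.38 (others 8.82 to 9.04), an array whose removal also ended that gene's call.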

How the results depend on the processing

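The 1647 calls of A1G metastatic minus Ptch1het ranged from 791 to 1645 when single arrays were left out, the low values coming without metastatic replicate 2 (791) and replicate 4 (1007). They numbered 1042 with only the 8 arrays of the comparison and 601 with only metastatic replicates 1 and 4, whose labels are worded alike. The other alternatives, among them no background correction (1674), no quantile step (1643) and no filter (1521), stayed within 1.5 times. Fewer arrays also leave fewer residual degrees of freedom. The lower calls fell to 261 with the 8 arrays, 123 with metastatic replicates 1 and 4, 358 with a term for arrays with a high Y-linked reading, and 373 without Ptch1het replicates 1 and 2, the last 2 settings chosen after seeing the data. These counts include genes not called with all arrays. Of the 615 lower calls themselves, 292 passed with the Y-linked term and 174 without Ptch1het replicates 1 and 2. The 873 calls against A1G primary tumours ranged from 605 to 963 with single arrays left out, and were 428 with probes above the median on all 12 arrays, 1339 with array weights and 425 with metastatic replicates 1 and 4. The 6 calls of A1G primary minus Ptch1het ranged from 4 to 60, the highest value coming without Ptch1het replicate 4, with 10 without Ptch1het replicate 2, and were 3 with the filter on all 12 arrays. Same-numbered metastatic and Ptch1het arrays did not deviate together (correlations of -0.075 to 0.083), so their numbers are not taken as pairs. Whether same-numbered metastatic and A1G primary arrays are pairs was not checked. With a replicate block 1895 genes were called in A1G metastatic minus Ptch1het. Gli2, which did not pass, changed sign with the mean of its probes (-0.2904), without metastatic replicate 1 (-0.056; range with single arrays left out -0.056 to 0.3147), with the Y-linked term (-0.0683) and without Ptch1het replicates 1 and 2 (-0.0761), and Irx3 with metastatic replicates 1 and 4 (0.0414). The cause of these shifts was not tested. Over 121 named genes and all alternatives, 2486 of 2868 values kept direction and side of the threshold, 365 lost the call, 12 gained it and 5 changed sign. Signal near the array median limits what can be said of dim genes.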
